A study of Mus musculus with 4 samples.

Results

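The expression of 8 genes, Cited4, Mid1, Rrad, Car2, Cyp11a1, Glipr1, Pygm and Tspoap1, was examined by RNA-seq in stimulated CD4+ T cells of WT mice and of mice that carry a mutant of the ribonuclease Regnase-1 (R111A). All 8 were found among the 16142 genes of the expression table. They were chosen because their FPKM value (fragments per kilobase of transcript, scaled to sequencing depth) in R111A cells was over 8 times that of WT cells in both replicates. Their difference between the genotypes is therefore a description and carries no test. WT cells came from B6 mice. R111A cells came from Cd4CreERT2 LSL-R111A fl/fl mice, in which tamoxifen activates a Cre recombinase expressed under Cd4. Cre then removes a Stop cassette in the Rosa26 locus, and the CAG promoter drives both EGFP and the R111A mutant, in which the site where the protease MALT1 cuts Regnase-1 is changed. Tamoxifen was given i.p. at 75 mg/kg for 5 days. The labels can be read as giving the WT mice of these libraries the same dose, and the samples were recorded here by that reading. The sources do not settle it, although the methods and legends name WT mice given tamoxifen in other experiments. For animals that carry a GFP reporter the methods describe sorting by GFP and then by CD25, without stating which fraction these libraries hold. Splenic CD4+ T cells of both genotypes were purified with Dynabeads, sorted by FACS and then activated by antibodies to CD3 (5 µg/mL) and CD28 (1 µg/mL) over 12 h. The labels call the mutant genotype an overexpression, and the mutation, the added amount of Regnase-1 and the presence of Cre cannot be told apart by this pair of groups. There were 2 libraries of polyA RNA per genotype. They are not stated to come from separate animals, so p-values measure only the spread between libraries, which may be technical. The depth was estimated from the steps between low FPKM values as 18.3 M and 16.7 M fragments in WT replicates 1 and 2, and as 16.7 M and 15.3 M in R111A replicates 1 and 2.

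Regnase-1 cuts mRNAs that carry certain stem-loops and so holds T cells at rest, and T cell receptor signals normally remove it through MALT1. The 8 genes do not form a pathway. Cited4, Mid1 and Rrad encode regulators of transcription, of protein turnover and of calcium channels. Car2, Cyp11a1 and Pygm encode enzymes best known from red blood cells, steroid-producing glands and skeletal muscle, and Glipr1 and Tspoap1 encode a CAP domain protein and a scaffold known from synapses. All 4 libraries had the profile of T cells. Of 8 T cell markers listed, 7 were in the table and each had a mean of at least 1 FPKM. Their summed level was 1801 and 1781 FPKM in the WT replicates and 1476 and 1359 FPKM in the R111A replicates, with Cd3g the most abundant by its mean over the 4 libraries. Cd4 itself was at 158 and 131 FPKM in WT versus 70.7 and 51.4 FPKM in R111A cells. Zc3h12a, the gene of Regnase-1, was at 17.0 and 15.7 FPKM in WT versus 196 and 131 FPKM in R111A cells, values that do not separate the transgene from the endogenous gene.

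Among the regulators, Cited4 encodes a coactivator that binds the acetyltransferases CBP and p300. Cited4 (NCBI gene 56222, on GRCm38 chromosome 4 from 120666563 to 120667820) was at 0.23 and 0.30 FPKM in the WT replicates versus 40.9 and 27.6 FPKM in the R111A replicates. Both R111A libraries lay far above both WT libraries, and R111A replicate 1 was 1.48 times replicate 2. The mean was 0.265 ± 0.0495 FPKM in WT and 34.2 ± 9.43 FPKM in R111A cells (SD, n = 2), a ratio of 129 and a difference of 4.77 in log2(FPKM + 1), with a standard error of 0.19. That scale understates the change of low genes. The WT values correspond to an estimated 3.9 and 4.8 fragments for the single annotated transcript, so the size of the ratio rests on very few fragments. In bulk RNA, fewer cells that express a gene and less of its RNA per cell cannot be told apart.

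Mid1 encodes an X-linked ubiquitin ligase on microtubules that binds the alpha4 protein (Igbp1) and through it controls the phosphatase PP2A. Mid1 (NCBI gene 17318, chromosome X from 169685199 to 169990798) was at 2.21 and 2.15 FPKM in WT versus 48.9 and 57.1 FPKM in R111A cells. The replicates of each genotype lay close together compared with the gap between the genotypes, with means of 2.18 ± 0.0424 and 53 ± 5.8 FPKM (SD, n = 2) and a ratio of 24.3. The gene runs across the boundary of the pseudoautosomal region in B6 mice, and how its repeated sequence was counted is not given, so its absolute level is uncertain. Rrad belongs to the RGK family of small GTPases, which bind the beta subunits of voltage-gated calcium channels and lower their current. Rrad (NCBI gene 56437, chromosome 8 from 104628070 to 104631350) was at 4.25 and 4.37 FPKM in WT versus 93.0 and 69.7 FPKM in R111A cells. Like Cited4, it was higher in R111A replicate 1 than in replicate 2, by 1.33 times. The ratio of the means, 81.4 ± 16.5 against 4.31 ± 0.0849 FPKM (SD, n = 2), was 18.9.

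Among the enzymes, Car2 encodes a cytosolic carbonic anhydrase that converts CO2 and water to bicarbonate. Car2 (NCBI gene 12349, chromosome 3 from 14886269 to 14900770) was at 0.63 and 0.53 FPKM in WT versus 19.7 and 20.3 FPKM in R111A cells. Its R111A replicates were nearly equal, and the ratio of means was 34.5. Cyp11a1 encodes the mitochondrial enzyme that cuts the side chain of cholesterol, the first step of steroid synthesis, and has also been described in type 2 T cells. Cyp11a1 (NCBI gene 13070, chromosome 9 from 57998024 to 58027031) was at 0.49 and 0.53 FPKM in WT versus 17.7 and 17.9 FPKM in R111A cells. It had the smallest spread of the 8 genes between the R111A replicates, 0.148 FPKM (SD, n = 2), and a ratio of means of 34.9. Pygm encodes the muscle form of glycogen phosphorylase, which frees glucose 1-phosphate from glycogen. Pygm (NCBI gene 19309, chromosome 19 from 6384408 to 6398464) was at 1.11 and 1.15 FPKM in WT versus 22.0 and 24.6 FPKM in R111A cells, a ratio of means of 20.6. Its WT values correspond to an estimated 44.1 to 51.8 fragments per library over the annotated transcript lengths, so the WT level of Pygm was counted on more fragments than that of Cited4.

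Glipr1 encodes a glioma pathogenesis-related protein of the CAP superfamily, which holds secreted and membrane-bound proteins. Glipr1 (NCBI gene 73690, chromosome 10 from 111985448 to 112002639) was at 29.0 and 26.5 FPKM in WT versus 306 and 365 FPKM in R111A cells. It was the most abundant of the 8 genes in every library and the only one with a WT level above the median of the genes tested. Its ratio of means, 12.1, was the smallest. Tspoap1 encodes a large scaffold that binds the mitochondrial protein TSPO and, at synapses, RIM proteins and calcium channels. Tspoap1 (NCBI gene 207777, chromosome 11 from 87758194 to 87785928) was at 0.16 and 0.19 FPKM in WT versus 11 and 11.8 FPKM in R111A cells. It was the lowest of the 8 genes in every library, with a ratio of means of 65.1. Its annotated transcripts run from 506 to 7616 nt, so that its WT values may stand for an estimated 0.5 to 23.2 fragments.

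**Figure D1:**
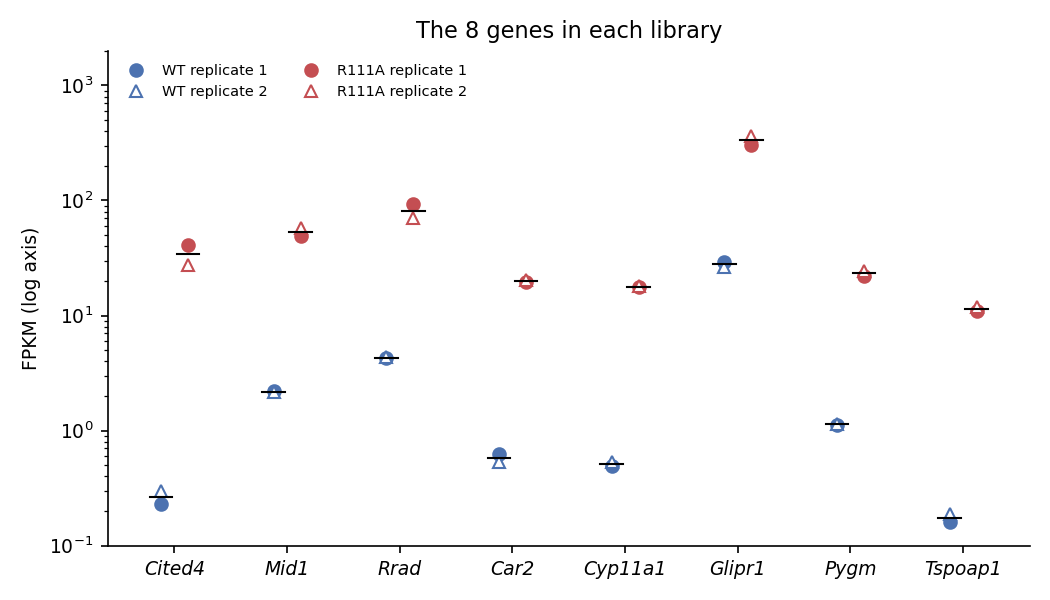
FPKM on a log axis for each of the 8 genes in each library; circles are replicate 1, triangles replicate 2, and black bars the means of 2 libraries. The R111A values lie between 11 and 365 FPKM and the WT values between 0.16 and 29.0 FPKM, and within each gene the genotypes do not overlap, as the choice of the genes requires.

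By FPKM, the order of the R111A means was Glipr1 at 335, Rrad at 81.4, Mid1 at 53, Cited4 at 34.2, Pygm at 23.3, Car2 at 20.0, Cyp11a1 at 17.8 and Tspoap1 at 11.4. Both R111A replicates gave this same order. Among the 9831 genes whose mean over the 4 libraries reached 1 FPKM, Tspoap1 moved from the lowest 0.773% of genes in WT replicate 2 to above 44.9% of them in R111A replicate 2. Rrad moved from above 21.0% to above 86.9% of genes in the same libraries, and Glipr1 from above 65.8% to above 97.5%. All 8 genes passed the filter at a mean of 1 FPKM. Only 4 of them (Mid1, Rrad, Glipr1 and Pygm) would have passed on the WT libraries alone, so the other 4 passed through the group in which they were high. The median difference of the 8 genes was 3.69 in log2(FPKM + 1), beside a median of -0.12 over all genes tested.

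The FPKM values summed to 801475 and 836143 in the WT libraries and to 1053551 and 1012215 in the R111A libraries, so the result depends on how libraries are scaled. Rescaled to TPM, which sets each library to the same sum, each of the 8 genes still had a lowest R111A value over 8 times the highest WT value. Glipr1 then stood at the edge, with 8.01 times, against 10.5 times in FPKM. For Cited4 the same quantity was 75.9 in TPM and 91.8 in FPKM.

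Other genes passed the rule too. With each R111A library over 8 times each WT library, 152 of 9831 genes (1.55%) passed, 9 of them listed at 0 in both WT libraries. Where the mean reached 5 FPKM the number was 53, which include the 8 genes. Ranked among these 53 by the lowest R111A value over the highest WT value, Cited4 was at rank 1, Tspoap1 at 3, Cyp11a1 at 5, Car2 at 7, Mid1 at 12, Pygm at 14, Rrad at 20 and Glipr1 at 36. The 8 genes are thus a choice from a larger group and not its upper end. The genes nearest to the threshold were Rtp4 (8.02 times), Rgs12 (8.05) and Ttll3 (8.16) just over it, and Alpk2 (7.92), Olr1 (8) and Smim24 (8) not over it. In the reverse direction, 20 genes were over 8 times higher in each WT library than in each R111A library.

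**Figure D2:**
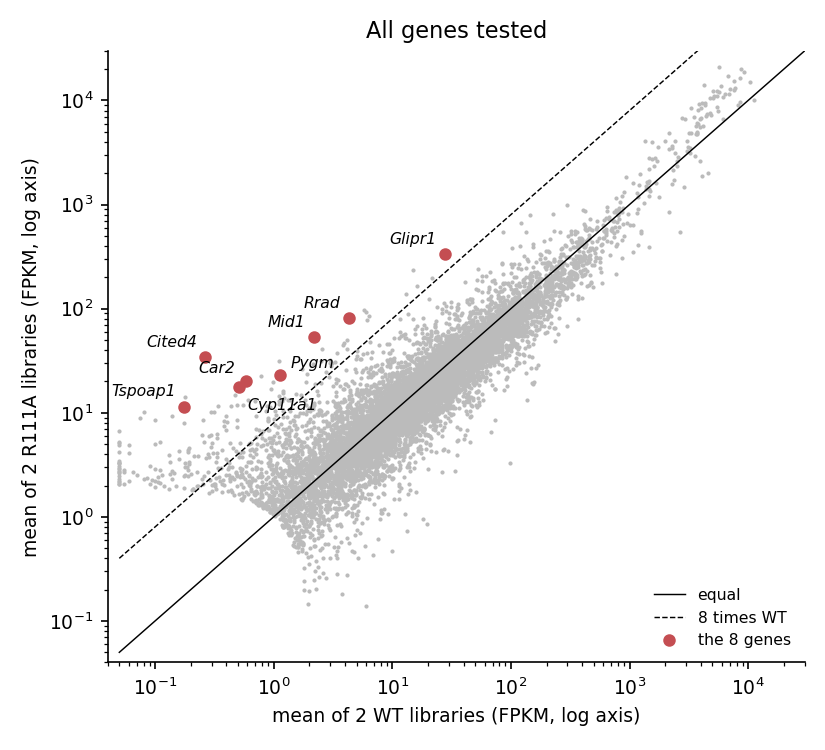
Mean FPKM in 2 WT and 2 R111A libraries on log axes for the 9831 genes tested (grey; means under 0.05 FPKM are drawn at 0.05), with the 8 genes in red. The 8 genes lie above the dashed line of 8 times WT, together with other genes that also passed that rule, and Glipr1, at a ratio of means of 12.1, is the nearest of them to the line.

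The replicates split the 8 genes. Cited4 and Rrad were higher in R111A replicate 1, by 1.48 and 1.33 times, while the other 6 genes were higher in replicate 2, with ratios from 0.837 for Glipr1 to 0.988 for Cyp11a1. Zc3h12a, whose fragments may include those of the transgene, had a ratio of 1.5 and so leaned the same way as Cited4 and Rrad. Over the 7526 tested genes whose R111A mean reached 5 FPKM, the ratio had a median of 0.999, and 1 gene in 20 lay below 0.682. The upper bound of the same kind was 1.43, which Cited4 exceeded and Rrad did not. Whether the amount of transgene set these differences was not tested.

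**Figure D3:**
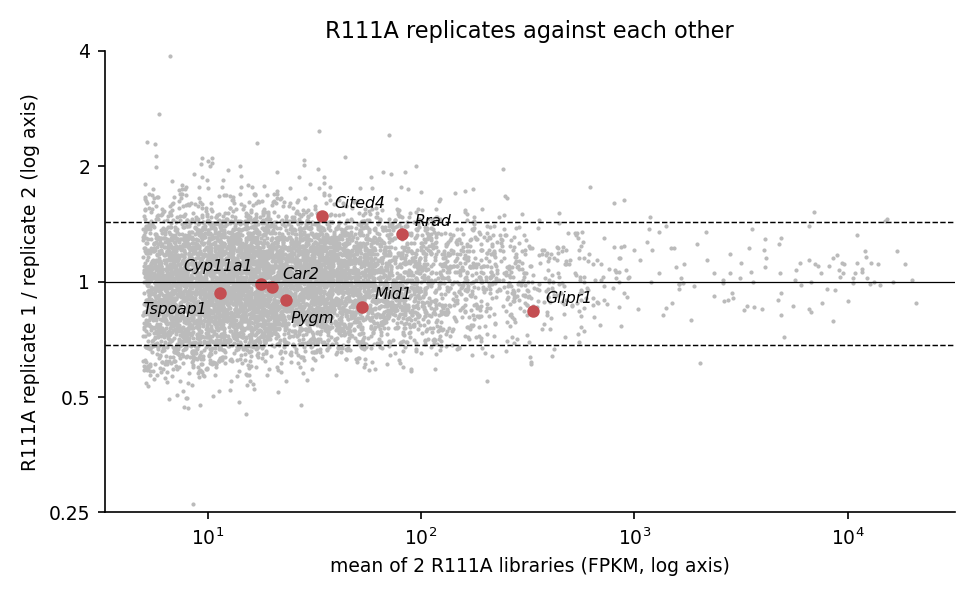
R111A replicate 1 over replicate 2 (log axis) against the R111A mean in FPKM (log axis) for genes whose R111A mean reached 5 FPKM (grey) and the 8 genes (red). Dashed lines mark the 5th and 95th percentile, 0.682 and 1.43; Cited4 lies above the upper line at 1.48, and the other 7 genes lie between the lines.

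On the scale of log2(FPKM + 1), the profiles of Car2, Cyp11a1, Glipr1, Pygm and Tspoap1 over the 4 libraries were close to each other. That of Cited4 stood apart on this scale. The Euclidean distance between log2(FPKM + 1) profiles, each centred on its own mean, was 0.12 between Pygm and Tspoap1, 0.13 between Car2 and Cyp11a1, and 1.4 between Cited4 and Tspoap1. Of 7640 other genes averaging 5 FPKM or more, the nearest to Rrad was Cdkn1a at a distance of 0.078. Cdkn1a encodes the cell cycle inhibitor p21 and was at 14.3 and 15.5 FPKM in WT versus 266 and 207 FPKM in R111A cells. Cdkn1a and Ifit1bl1, an interferon-inducible gene, were also the nearest genes to Cited4, both at 0.89. Ifit1bl1 and Psrc1 were nearest to Mid1 (0.24 and 0.33). Ifit1bl1 was also second nearest to Rrad and to Car2, each at 0.24. Apoe, which encodes a lipid carrier, was nearest to Car2 (0.22) and Cyp11a1 (0.18), followed for Cyp11a1 by the granzyme gene Gzmm (0.24). The chemokine receptor gene Cxcr4 was nearest to Glipr1 (0.19), Pygm (0.18) and Tspoap1 (0.22), each followed by Ovgp1. With 4 libraries in 2 groups, such likeness mostly reflects a similar difference between the genotypes in log2(FPKM + 1), not a similar ratio. The ratios of means ran from 12.1 for Glipr1 to 65.1 for Tspoap1. With a pseudocount of 0.1 FPKM the differences were 3.58 for Glipr1, 4.25 for Pygm, 4.88 for Cyp11a1, 4.89 for Car2, 5.39 for Tspoap1 and 6.53 for Cited4. With 5 FPKM, Glipr1 was at 3.37, Tspoap1 at 1.66 and Cited4 at 2.88. The likeness thus depends on the pseudocount.

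The 8 genes lie on 8 different chromosomes, and their transcripts have no common size or base composition. The longest coding transcript ran from 1183 nt for Glipr1 to 7616 nt for Tspoap1, with a median of 1954 nt, beside 3036 nt over the 9600 tested genes with an annotated one. GC content ran from 45% for Glipr1 to 66.4% for Cited4, with a median of 54.9% beside 49.9%. The Cited4 transcript had a higher GC content than 99.9% of those genes. The bases in front of their starts were read as a description, since the genes were chosen for the same difference. RefSeq promoters of GRCm38.p6 matched 4 of the 8 genes, Cited4, Mid1, Cyp11a1 and Pygm, with 7 promoters in all (3 of Mid1 and 2 of Cyp11a1). The 150 bases before the first listed start of each are shown because they bear the matches described next, or, for Cyp11a1, show a stretch without one. Capitals mark matches to the motifs searched.
Cited4 (chr4:120666413-120666562, plus strand): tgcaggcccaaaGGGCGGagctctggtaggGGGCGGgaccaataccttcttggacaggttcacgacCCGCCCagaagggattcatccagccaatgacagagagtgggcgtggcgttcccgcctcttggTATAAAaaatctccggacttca
Mid1 (chrX:169685049-169685198, plus strand): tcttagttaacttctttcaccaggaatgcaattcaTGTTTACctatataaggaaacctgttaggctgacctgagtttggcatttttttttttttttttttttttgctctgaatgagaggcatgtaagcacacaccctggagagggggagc
Cyp11a1 (chr9:57997874-57998023, plus strand): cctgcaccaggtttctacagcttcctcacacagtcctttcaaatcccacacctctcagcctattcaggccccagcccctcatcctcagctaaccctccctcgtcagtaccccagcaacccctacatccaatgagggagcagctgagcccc
Pygm (chr19:6384258-6384407, plus strand): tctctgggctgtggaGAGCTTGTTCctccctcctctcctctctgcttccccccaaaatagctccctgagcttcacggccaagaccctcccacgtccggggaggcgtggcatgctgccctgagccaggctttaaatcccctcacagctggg

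Motifs were searched on both strands in the 300 bases of each promoter, 250 before and 50 after the start, and the share of all 32851 promoters that hold each is given beside it. TATAAA (the TATA box, in 13.6% of all promoters) occurred in Cited4 alone, at -22 to -17 from the start. GGGCGG (the GC box, in 35.7%) occurred at 3 places before the start of Cited4, 1 of them on the other strand, and in Cyp11a1 after the start. TGTTTAC (a forkhead motif, in 3.65%) occurred in Mid1 at -115 to -109. The p53 decamer, the 10-base unit that p53 binds as a pair, occurred in Pygm at -135 to -126 and in the same Mid1 promoter after the start, and in 8.36% of all promoters. A pair of decamers with a spacer of 0 to 13 bases, held by 0.0731% of all promoters, was found in none of the 7. Neither CACGTG (the E-box, in 7.15%) nor TGANTCA (the AP-1 motif, in 7.81%) was found in them. No motif was found in more than 2 of the 4 genes. A match describes the letters and does not mark a bound site.

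Relatives and partners of the 8 genes were then read from the fit across all 9831 genes (limma, Benjamini-Hochberg adjustment over all of them). In that fit, 838 genes (8.52%) were called higher and 820 (8.34%) lower in R111A cells at 2-fold with an adjusted p under 0.05. After rescaling to TPM the calls were 583 higher and 1749 lower, so that 25% of calls were higher instead of 50.5%. Other scalings went the opposite way, with 932 higher and 678 lower (57.9% higher) by median-of-ratios factors and 837 higher and 723 lower (53.7%) by quantile normalization. Of 101 relatives and partners in 8 lists, 86 were in the table, 35 were tested, 6 were called higher and 3 lower, and 15 were listed at 0 in all 4 libraries. Of the 6 called higher, 3 (Rem2, Car15 and Star) passed the filter only through the R111A libraries, so the count of 6 is not read as support. The median log2 fold change of the 35 tested relatives was -0.07, beside -0.12 for all genes tested. Most of the 35 tested relatives were thus not called, with 17.1% called higher and 8.57% lower, beside 8.52% and 8.34% of all genes. The other relatives were not tested.

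Rrad was compared with its family. Of 7 RGK GTPases and calcium channel beta subunits, 4 were tested and 3 were called higher, Rem2 among them, beside 8.52% of all genes. Rem2, another RGK GTPase, was at 0.21 and 0.07 FPKM in WT versus 8.93 and 9.89 FPKM in R111A cells, a log2 fold change of 3.19 (SE 0.15, adjusted p = 3.4e-06, limma). Rem2 passed the filter only through the R111A libraries, so it was tested only because it was high there. Gem, a further member of the family, was at 1.23 and 1.43 FPKM in WT versus 3.53 and 3.94 FPKM in R111A cells (log2 fold change 1.02, SE 0.14, adjusted p = 5.0e-04, limma). Rem1 was listed at 0 in all 4 libraries. Cacnb3, a beta subunit that RGK proteins bind, was at 1.04 and 1.38 FPKM in WT versus 5.18 and 3.20 FPKM in R111A cells (log2 fold change 1.21, SE 0.20, adjusted p = 0.0012, limma). Cacnb1 was near 1 FPKM in every library and did not pass the test. Gem and Cacnb3 were close to the 2-fold threshold. Gem fell under it without R111A replicate 2 and without WT replicate 1 (0.96 in each), in TPM (0.82) and under quantile normalization (0.92), and Cacnb3 without R111A replicate 1 (0.93), each with an adjusted p in limma between 7.6e-04 and 0.0041.

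Of 15 further carbonic anhydrases, 14 were in the table and only 2 were tested. Car15, a membrane-anchored form, rose from 0.84 and 0.78 FPKM to 6.90 and 6.52 FPKM (log2 fold change 2.09, SE 0.14, adjusted p = 1.3e-05, limma), and like Rem2 it passed the filter only through R111A cells. Car12, a transmembrane form, fell from 14.2 and 11.4 FPKM to 3.93 and 4.52 FPKM (log2 fold change -1.40, SE 0.16, adjusted p = 1.7e-04, limma). In WT cells Car12 was thus the main carbonic anhydrase of the list by FPKM, and in R111A cells Car2, at a mean of 20.0 FPKM, stood above both. The erythroid gene Car1 was absent from WT libraries and reached 0.07 and 0.23 FPKM in the R111A libraries.

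Cyp11a1 needs cholesterol inside mitochondria, which the protein of Star delivers, and electrons from Fdxr and Fdx1. Of 16 genes of steroid synthesis, 5 were tested. Of these 1, Star, was called higher (20%, beside 8.52% of all genes) and 0 lower (beside 8.34%). Star was at 0.98 and 1.00 FPKM in WT versus 4.07 and 4.74 FPKM in R111A cells (log2 fold change 1.44, SE 0.14, adjusted p = 8.3e-05, limma). Its WT mean lay just under the filter. Tspo, the most abundant gene of the list, was at 56.6 and 65.6 FPKM in WT versus 98.2 and 85.2 FPKM in R111A cells, which passed the adjusted p (0.0087, limma) without reaching 2-fold. Tspo did not pass it in TPM (log2 fold change 0.25, adjusted p = 0.14) or without WT replicate 1 (0.47, adjusted p = 0.16) in limma. Stard3, a cholesterol transporter of endosomes, also passed the adjusted p in limma alone (0.0012, log2 fold change 0.81). Fdxr went the other way, from 22.4 and 21.8 FPKM to 11.5 and 11.6 FPKM (log2 fold change -0.88, adjusted p = 7.6e-04, limma). Of the enzymes that act after Cyp11a1, Hsd3b1 and Hsd3b6 were not in the table, and those present were at or near 0. Cyp17a1 was listed at 0 in all 4 libraries, as were the steroidogenic factors Nr5a1 and Nr5a2, and Cyp21a1 and Cyp11b2 reached 0.20 and 0.04 FPKM at most. Stard3 and Fdxr were named after their values were seen.

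Pygm acts among 25 other genes of glycogen metabolism, of which 15 were tested. Of these 1 was called higher (6.67%, beside 8.52% of all genes) and 2 lower (13.3%, beside 8.34%). Without a fold threshold, 1 was higher and 5 lower by the adjusted p in limma, beside 2088 and 3152 of all 9831 genes tested. Pygb, the brain form of glycogen phosphorylase, was at 18.9 and 18.8 FPKM in WT versus 19.7 and 16.4 FPKM in R111A cells, and the liver form Pygl was listed at 0. In R111A cells Pygm was thus at 22.0 and 24.6 FPKM beside a Pygb of similar level, whereas in WT cells Pygb was the form with most FPKM. Ppp1r3f, a glycogen-targeting subunit of protein phosphatase 1, rose from 1.26 and 1.11 FPKM to 6.99 and 6.84 FPKM (log2 fold change 1.86, SE 0.14, adjusted p = 2.2e-05, limma). Another such subunit, Ppp1r3e, fell from 8.29 and 8.62 FPKM to 3.32 and 2.70 FPKM (log2 fold change -1.24, SE 0.15, adjusted p = 2.2e-04, limma). Pgm1, a phosphoglucomutase, fell from 21.7 and 20.0 FPKM to 10.5 and 8.34 FPKM (log2 fold change -1.07, SE 0.15, adjusted p = 6.2e-04, limma), but by 0.92 without R111A replicate 2, by 0.98 with median-of-ratios factors and by 1.00, just short of 2-fold, under quantile normalization. The most abundant gene of the list, Phkg2, a subunit of phosphorylase kinase, was at 27.1 and 26.8 FPKM in WT versus 29.8 and 27.7 FPKM in R111A cells and did not pass the test. Pygb and Pygl were named for comparison with Pygm after their values were seen.

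For Cited4, Mid1, Glipr1 and Tspoap1 no relative or partner passed both thresholds. Cited2, the related coactivator, was at 7.81 and 7.91 FPKM in WT versus 16 and 9.56 FPKM in R111A cells (log2 fold change 0.60, adjusted p = 0.044, limma). It passed on the adjusted p alone, and not in TPM (log2 fold change 0.29, adjusted p = 0.21), without R111A replicate 1 (0.25, adjusted p = 0.071) or without either WT replicate (adjusted p = 0.10 and 0.093) in limma. Mid2, the nearest relative of Mid1, reached 0.12 FPKM at most, and Ppp2ca, the catalytic subunit of PP2A and the most abundant of the Mid1 list, did not pass the test (log2 fold change -0.15, adjusted p = 0.32, limma) but passed the adjusted p in TPM (-0.49, adjusted p = 0.0052). By the adjusted p alone in limma, Igbp1 was higher (log2 fold change 0.37, adjusted p = 0.044). Mid1ip1 (-0.53, adjusted p = 0.027) and Ppp2cb (-0.34, adjusted p = 0.047) were lower in the same way in limma. Glipr2 was the only tested gene among 13 CAP superfamily relatives and was lower by the adjusted p alone, at 21.5 and 22.9 FPKM in WT against 14.7 and 15.2 FPKM in R111A cells (log2 fold change -0.54, adjusted p = 0.0089, limma). Without either WT replicate Glipr2 did not pass (adjusted p = 0.11 and 0.18, limma). Of 7 RIM-binding proteins and partners listed for Tspoap1, 5 were in the table and none was expressed enough to be tested, with Rims3 the highest at 0.62 FPKM. Mid2, Igbp1, Mid1ip1, Ppp2cb and Rims3 were named after their values were seen.

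**Figure D4:**
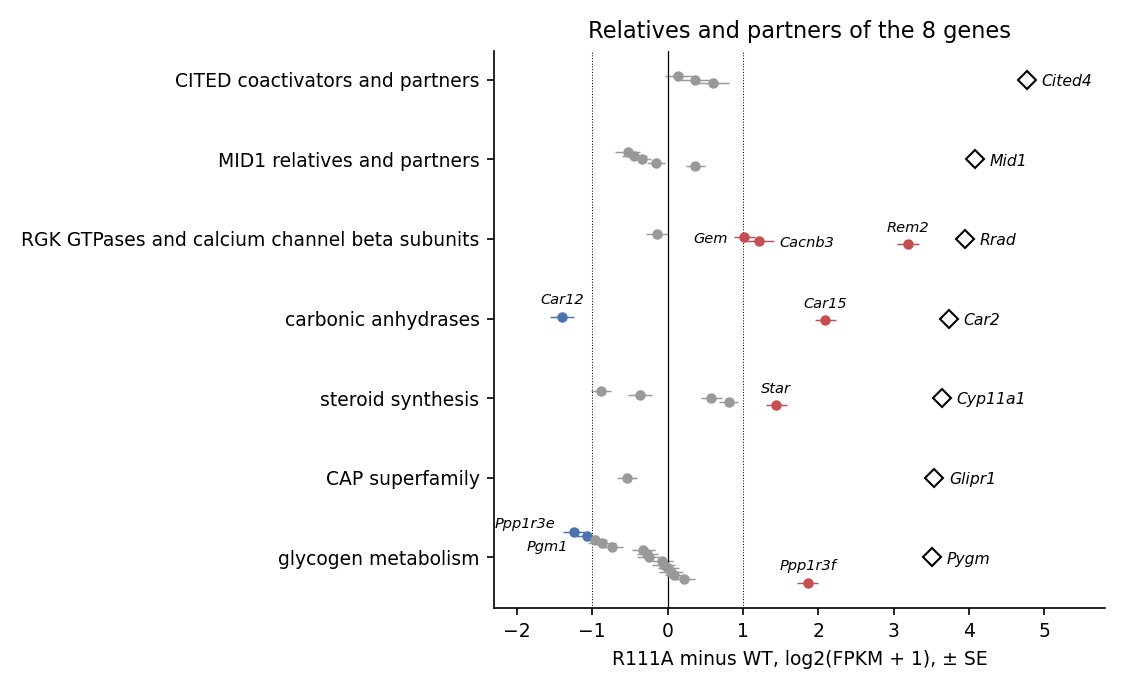
Log2 difference between R111A and WT libraries in log2(FPKM + 1) for each tested relative or partner (circles ± SE from limma; red called higher, blue called lower, grey not called) and for the gene each list belongs to (open diamonds, chosen on this difference). Dotted lines mark a 2-fold change. Rem2, at 3.19, is the relative nearest to its diamond, and most circles lie between the dotted lines.

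Rrad and Glipr1 have been described as targets of p53. In a list of 28 other genes, p53 targets and Trp53 itself, 25 were tested, of which 16 were called higher and 1 lower, with a median log2 fold change of 1.28, beside 8.52% of all genes called higher, 8.34% lower and a median of -0.12. The most changed were Cdkn1a (log2 fold change 3.89, SE 0.15, adjusted p = 2.7e-06), Bbc3 (3.52, SE 0.17, adjusted p = 4.5e-06), Phlda3 (3.29, SE 0.16, adjusted p = 4.5e-06) and Plk2 (3.26, SE 0.15, adjusted p = 3.4e-06) in limma. The other 12 called higher were Ccng1, Trp53inp1, Sesn1, Sesn2, Aen, Btg2, Pmaip1, Fas, Gtse1, Tnfrsf10b, Polk and Ercc5. Tigar was the gene called lower, and Bax, the most abundant of the list, did not reach 2-fold. Also not called were Mdm2 (log2 fold change 0.59), Zmat3 (0.61), Rrm2b (0.29), Perp (0.1), Ei24 (-0.49), Ckap2 (-0.46) and Trp53 itself (-0.04). In TPM, Aen (0.82), Sesn1 (0.87), Ercc5 (0.84) and Tnfrsf10b (0.98) fell short of 2-fold, as did Ercc5 without R111A replicate 2 (0.98). Tigar, at a log2 fold change of -1.03, was at -0.98 without R111A replicate 1 and at -0.95 with median-of-ratios factors, and so was not called there. The list was chosen with earlier results of these data known. Whether p53 bears on the levels of Rrad and Glipr1 was not tested. Cyp11a1 has been described in type 2 T cells, and of 10 genes of that type 8 were tested, 0 were called higher and 3 lower, beside the same shares of all genes. Il4 was at 10.2 and 15.5 FPKM in WT versus 1.42 and 0.70 FPKM in R111A cells (log2 fold change -2.74, SE 0.23, adjusted p = 3.7e-05, limma). Il13 (log2 fold change -2.62, SE 0.13, adjusted p = 4.9e-06) and Il10 (-2.0, SE 0.16, adjusted p = 3.0e-05) fell as well in limma. Il13 and Il10 passed the filter only through the WT libraries, where they were high. Ccr8, the most abundant of that list, did not reach 2-fold (log2 fold change -0.91), but did in TPM (-1.24) and without R111A replicate 2 (-1.11). Gata3 (log2 fold change -0.56), Maf (-0.34), Il4ra (0.08) and Crlf2 (0.45) were not called. Cyp11a1 and Il4 differed in opposite directions in the same libraries, and whether type 2 T cells bear on the level of Cyp11a1 was not tested. By the adjusted p in limma without a fold threshold, 1 gene of the type 2 list was higher and 5 were lower. Over all 9831 genes tested, 2088 were higher and 3152 lower at that threshold.

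The genes next to the 8 on their chromosomes, which were not used to choose them, were read in the same fit. Of the 31 tested genes that are the 2 nearest on each side, 4 were called higher (12.9%, beside 8.52% of all genes) and 3 lower (9.68%, beside 8.34%), with a median log2 fold change of -0.04. Most neighbours were thus not called. Sema7a, which encodes a membrane-anchored semaphorin, ends 35.2 kb before Cyp11a1 on the same strand. It was at 21.1 and 22.1 FPKM in WT versus 223 and 170 FPKM in R111A cells (log2 fold change 3.12, SE 0.16, adjusted p = 4.7e-06, limma). On the other side of Cyp11a1, Pml and Stoml1 were not called. Rasgrp2, which encodes an activator of Rap GTPases, starts 0.493 kb after the end of Pygm on the same strand. It was at 5.57 and 5.29 FPKM in WT versus 23.3 and 20.0 FPKM in R111A cells (log2 fold change 1.81, SE 0.14, adjusted p = 3.0e-05, limma). Sf1, 6.37 kb before Pygm, was at 96.3 and 95 FPKM in WT versus 106 and 81.5 FPKM in R111A cells and did not pass the test. Erdr1, 19.7 kb beyond Mid1 and the only tested gene on that side, was at 128 and 139 FPKM in WT versus 618 and 462 FPKM in R111A cells (log2 fold change 1.99, SE 0.16, adjusted p = 3.1e-05, limma). Erdr1 lies in repeated sequence of the pseudoautosomal region, so its value is uncertain.

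Krr1, whose protein serves ribosome assembly, overlaps Glipr1 by 2983 bases on the opposite strand. It fell from 32.2 and 33.5 FPKM to 13.3 and 15.4 FPKM (log2 fold change -1.15, SE 0.14, adjusted p = 2.5e-04, limma). The sources do not state that strand was used in counting, so fragments from the overlap cannot be assigned to Glipr1 or Krr1 with certainty. The 2 genes differed in opposite directions, and the part of the overlap in either value was not tested. Phlda1, 477 kb from Glipr1, was called higher (log2 fold change 1.08, SE 0.21, adjusted p = 0.003, limma), but only by 0.76 without R111A replicate 1, by 0.98 without WT replicate 1 and by 0.78 in TPM. Ctps, 96.3 kb before Cited4, fell (log2 fold change -1.22, SE 0.14, adjusted p = 1.9e-04, limma), as did Dynll2, 194 kb after Tspoap1 (log2 fold change -1.51, SE 0.14, adjusted p = 6.3e-05, limma). No neighbour of Rrad or Car2 was called. Pml, Stoml1 and Sf1 were named after their values were seen.

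**Figure D5:**
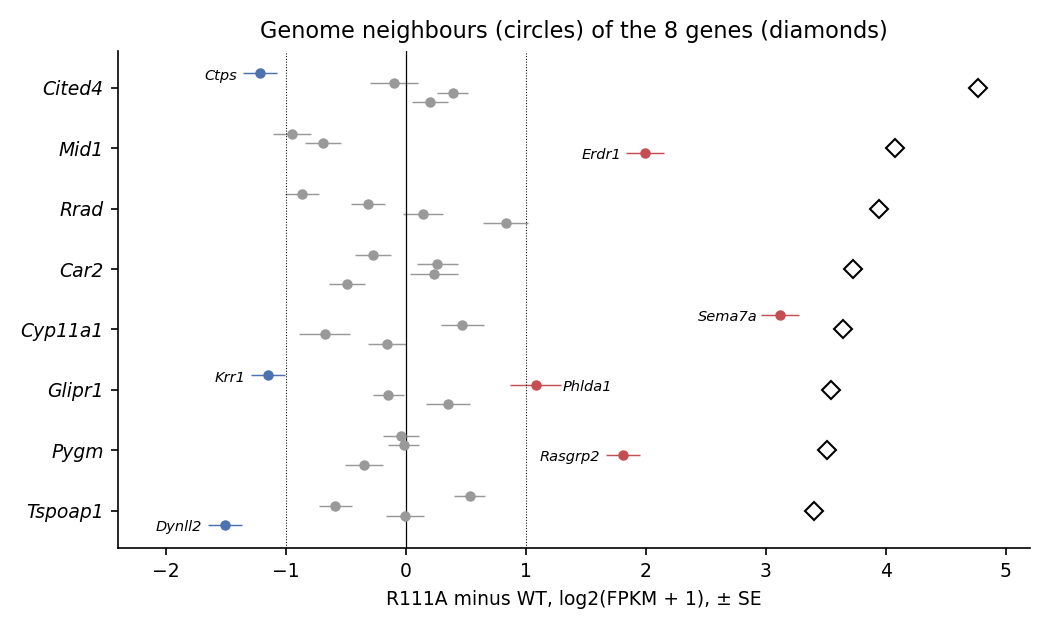
Log2 difference between R111A and WT libraries in log2(FPKM + 1) for the 2 nearest tested genes on each side (circles ± SE from limma; red called higher, blue called lower, grey not called) of each of the 8 genes (open diamonds, chosen on this difference). Sema7a beside Cyp11a1, at 3.12, lies nearest to its diamond; the neighbours of Rrad and Car2 all lie between the dotted lines of a 2-fold change.

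Since several of the 8 genes are best known from other tissues, markers of other cell types were read in each library. Car2 is abundant in red blood cells. The 10 erythroid markers summed to 0.66 and 1.00 FPKM in WT versus 13.3 and 13.6 FPKM in R111A cells. Nearly all of this was Hba-a1, at 12.3 and 11.7 FPKM in R111A cells, whereas Hba-a2, Hbb-bs and Slc4a1 were at 0 in every library. The beta globin gene Hbb-bt was at 0 and 0.26 FPKM in WT versus 0.41 and 1.19 FPKM in R111A cells, and Klf1 at 0 and 0.15 FPKM versus 0.30 and 0.28 FPKM. Hba-a1 and Hba-a2 are near-identical copies, so their split is uncertain. Pygm is a muscle gene, and of the 5 skeletal muscle markers in the table Ckm, Myh1 and Tnni2 were at 0 in every library. The list summed to 0.65 and 0.41 FPKM in WT versus 3.02 and 2.41 FPKM in R111A cells, where it was mostly Tnnt3. Tspoap1 is a synaptic gene, and the 5 neuron markers summed to 2.79 and 2.64 FPKM in WT versus 34.7 and 30.8 FPKM in R111A cells. Almost all of that was Syp, at 33.7 and 29.4 FPKM in R111A cells, while Map2 was at 0.18 and 0.19 FPKM in WT versus 1.02 and 1.32 FPKM in R111A cells, and Rbfox3 and Syt1 were at 0 in every library.

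The other marker lists were read in the same way. The 9 myeloid markers summed to 2.22 and 1.45 FPKM in WT versus 15.8 and 11.5 FPKM in R111A cells, with Cd68 the most abundant. Lyz2 was at 0.45 and 0 FPKM in WT versus 3.01 and 2.37 FPKM in R111A cells. Adgre1 was at 0.04 and 0.04 FPKM versus 0.77 and 1.04 FPKM, and Itgam at 0 and 0.03 FPKM versus 0.54 and 0.39 FPKM. S100a8 was at 0 and 0.55 FPKM in WT versus 2.2 and 0 FPKM in R111A cells. Csf1r, Cd14 and Ly6g reached 0.47 FPKM at most, and S100a9 was at 0 in every library. The 5 megakaryocyte markers summed to 0.28 and 0.32 FPKM in WT versus 9.99 and 10.3 FPKM in R111A cells, almost all from Itga2b, with Pf4 and Gp9 at 0. The 5 NK cell markers summed to 1.24 and 1.10 FPKM in WT versus 9.52 and 7.24 FPKM in R111A cells, mostly from Eomes. The 7 B cell markers summed to 2.13 and 1.00 FPKM in WT versus 5.14 and 4.52 FPKM in R111A cells, with Cd79a the most abundant by its mean, and the 6 mast cell or basophil markers in the table stayed under 1 FPKM in sum in every library. Markers of CD8+ T cells (7.31, 6.76, 3.88 and 4.46 FPKM in WT 1, WT 2, R111A 1 and R111A 2) and of Tregs (197, 196, 143 and 148 FPKM, mostly Il2ra) were lower in R111A cells. Foxp3 was at 11.3 and 8.78 FPKM in WT versus 2.86 and 1.86 FPKM in R111A cells. The part of these cell types in the values of the 8 genes was not tested.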

How the data were processed

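RNA-seq was analysed for 2 WT and 2 R111A libraries of stimulated CD4+ T cells. The authors filtered adaptors and low-quality bases, aligned reads to mm10 with Bowtie2 (version 2.4.4), estimated expression with RSEM (version 1.2.28) and deposited FPKM values for 16142 genes. A count test was not used, since FPKM values are not counts, and 0 other columns of per-sample values were left out.

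Groups and replicate numbers came from the sample labels. The 8 genes and all gene lists were chosen with earlier results of these data known. Depth was estimated from steps between low FPKM values and transcript lengths. The step and a length subtracted from each transcript were those that fitted best within a bounded range. Of the values used, 73.6% to 85.5% lay within 0.2 of a whole fragment. These are the values that chose the step, so that share is not an independent check. The test was limma 3.58.1 (R 4.3.3; lmFit, eBayes with trend) on log2(FPKM + 1) of the 9831 genes averaging 1 FPKM or more, with Benjamini-Hochberg adjustment over all of them. Calls required 2-fold and an adjusted p under 0.05. The procedure was tested on simulated data. An exact permutation test of 2 against 2 libraries cannot give a two-sided p below 0.333. The 8 genes were described without a test.

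Genes named were the 8 genes, Zc3h12a, in each list those called and the one with the highest mean FPKM (values of single genes are given where they bear on a statement), called neighbours, the 2 genes nearest in profile to each of the 8, and the 3 genes on either side of the 8-fold threshold. Marker genes and others outside this rule were named after their values were seen. Alternatives were other scalings, pseudocounts, filters and variance settings, a replicate block and leaving out each library. The numbers passing the 8-fold rule in TPM, at a mean of 5 FPKM and without each library, and the median over the 8 genes, were added after the data were seen. Annotation was RefSeq GRCm38.p6 and GENCODE for transcripts. A planned comparison of protein sequences was not made. Other steps used python 3.11.15, numpy 2.4.6, pandas 2.3.3 and matplotlib 3.10.9.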

Additional observations from a re-analysis of the deposited data

How the results depend on the processing

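The calls depend on scale more than on single libraries. From 838 genes called higher and 820 lower by limma, TPM gave 583 higher and 1749 lower, median-of-ratios factors 932 and 678, quantile normalization 837 and 723, a pseudocount of 5 FPKM 386 higher and 402 lower, a filter at 5 FPKM 521 higher, and the adjusted p alone 2088 higher and 3152 lower. Over all 10 lists together, the p53 targets and type 2 genes included, 22 related genes were called higher and 7 lower; TPM gave 11 lower, a pseudocount of 5 FPKM 14 higher and 2 lower, and the adjusted p alone 18 lower. From 4 neighbours called higher and 3 lower, TPM gave 6 lower, and 5 neighbours on each side gave 8 higher and 5 lower. The 152 genes over 8 times became 53 at a mean of 5 FPKM and 121 in TPM. They became 169 with libraries paired by replicate number and 196 with group means. The median difference of the 8 genes, 3.69, became 3.53 in TPM, 4.71 with a pseudocount of 0.1 FPKM and 2.54 with 5 FPKM. Of the differences of the 8 genes under other settings, 85 stayed within the spread of replicates and 27 moved beyond it. Of the values of Zc3h12a and the listed or neighbouring genes named by the rule, 573 kept their joint call by fold and adjusted p, though some of them crossed the adjusted p alone, 33 became weaker, 2 stronger and 0 reversed. Other named genes were not followed. With a pseudocount of 5 FPKM, Gem, Cacnb3, Car12, Star, Ppp1r3e, Ppp1r3f, Pgm1, Il10, Sesn1, Sesn2, Tnfrsf10b, Ercc5, Tigar, Krr1 and Phlda1 fell short of 2-fold.

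Leaving out 1 library at a time gave 834 to 851 genes higher and 824 to 884 lower, 20 to 22 related genes higher and 7 to 9 lower, 3 to 4 neighbours higher and 3 to 4 lower, 168 to 189 genes over 8 times, and a median of 3.67 to 3.70. A lone library is then assumed to vary like the other group.

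With the replicate number as a block, 841 genes were higher and 821 lower, and the counts for related genes (22 and 7), neighbours (4 and 3) and the median (3.69) were the same. The labels do not say that equal numbers share an animal or batch, and with 2 pairs the correlation of their deviations, 0.111 over 9831 genes, does not settle it. The comparison of protein sequences was not run, since no table of them was available. With 2 libraries per genotype, neither spread between animals nor Cre effects can be separated from the mutant. The same holds for tamoxifen if the WT mice did not receive it, which is not settled.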
